A study of Homo sapiens with 12 samples.

Results

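Glucose entry and the glycolytic enzymes of PDAC cells were measured here through 10 genes: the transporter SLC2A1 and the enzymes HK1, HK2, PFKP, ALDOA, GAPDH, PGK1, ENO1, ENO2 and LDHA. Members were every row of the deposited array table that carried 1 of these gene names, which gave 22 rows of 47228 (10 gene names of 34599). The rows were taken by gene name and not by a measured value, though the genes were chosen with earlier results of these data known. MIA PaCa-2 and Capan-1, both established lines from human pancreatic adenocarcinoma, carried the PLKO.1 tet-on hairpin backbone with a puromycin marker and expressed a scrambled hairpin (shCtrl) or 1 of 2 hairpins against FAK, sh1209 or sh1319. The Capan-1 labels spell the latter shFAK1319, which was taken as the same hairpin. MIA PaCa-2 cells were kept in 3.5 ug/ml and Capan-1 cells in 1.5 ug/ml puromycin, so dose and line cannot be told apart, and FAK knockdown was induced with 50 ng/ml doxycycline over 96 hours. The protocol does not say separately whether shCtrl cells received doxycycline. Each of the 6 groups had 2 arrays on a single Illumina HumanHT-12 v4 chip. Nothing in the sources used here says that these came from separate cultures, so p-values measure only the spread between arrays, which may be technical. No cells without a hairpin and no rescue with a resistant FAK were among the groups.

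Glycolysis splits glucose into pyruvate in the cytosol and yields ATP, and pyruvate can then be reduced to lactate. Glucose enters through facilitative carriers such as SLC2A1 (GLUT1), hexokinases trap it by phosphorylation, and phosphofructokinase commits it to breakdown. Aldolase, GAPDH, phosphoglycerate kinase and enolase carry the sugar phosphates on to phosphoenolpyruvate, and lactate dehydrogenase A regenerates the NAD+ that GAPDH consumes. Pancreatic cancer cells are known for strong glycolysis, which MYC and the hypoxia-inducible factor HIF-1 can raise. HIF-1 binds the core letters ACGTG or GCGTG in the control regions of many glycolytic genes, and MYC binds the overlapping letters CACGTG.

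The sequences before the start sites are shown for 5 members that moved in different ways below, so that the letters can be set beside the changes. HK2 was lower with sh1319 in both lines, LDHA and PGK1 were higher with sh1209 than with sh1319 in Capan-1, ENO2 was lower with both hairpins in MIA PaCa-2, and SLC2A1 passed the test with neither hairpin in either line. All of these were picked with their changes known. Each run holds the 250 bases before the most upstream start in RefSeq (GRCh38.p14), written 5′ to 3′ on the gene's strand, and capitals mark ACGTG or GCGTG on either strand.
HK2 (chr2:74833877-74834126, plus strand): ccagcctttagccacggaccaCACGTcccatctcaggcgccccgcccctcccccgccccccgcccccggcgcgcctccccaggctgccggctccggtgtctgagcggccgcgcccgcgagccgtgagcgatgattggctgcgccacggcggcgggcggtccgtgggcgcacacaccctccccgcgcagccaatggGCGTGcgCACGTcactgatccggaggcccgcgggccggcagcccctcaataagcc
LDHA (chr11:18394313-18394562, plus strand): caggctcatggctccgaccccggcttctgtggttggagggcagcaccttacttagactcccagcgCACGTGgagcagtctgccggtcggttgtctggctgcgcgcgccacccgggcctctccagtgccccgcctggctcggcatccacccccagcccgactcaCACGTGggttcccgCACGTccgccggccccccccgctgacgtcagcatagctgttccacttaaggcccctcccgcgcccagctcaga
PGK1 (chrX:78103998-78104247, plus strand): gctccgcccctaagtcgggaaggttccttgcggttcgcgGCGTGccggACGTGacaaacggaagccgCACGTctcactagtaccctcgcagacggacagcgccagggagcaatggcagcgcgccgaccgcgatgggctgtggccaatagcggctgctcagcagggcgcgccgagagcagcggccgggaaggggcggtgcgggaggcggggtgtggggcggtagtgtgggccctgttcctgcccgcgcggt
ENO2 (chr12:6914330-6914579, plus strand): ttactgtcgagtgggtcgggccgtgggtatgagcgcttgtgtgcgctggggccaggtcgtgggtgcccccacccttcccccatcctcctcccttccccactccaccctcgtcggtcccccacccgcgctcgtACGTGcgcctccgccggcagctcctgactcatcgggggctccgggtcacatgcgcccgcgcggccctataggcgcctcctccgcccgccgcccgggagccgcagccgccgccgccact
SLC2A1 (chr1:42958869-42959118, minus strand): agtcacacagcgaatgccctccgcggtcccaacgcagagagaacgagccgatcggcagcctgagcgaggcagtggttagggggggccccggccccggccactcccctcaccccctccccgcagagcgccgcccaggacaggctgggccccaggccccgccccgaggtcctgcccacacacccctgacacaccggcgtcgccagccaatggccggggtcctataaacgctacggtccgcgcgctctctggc

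These letters occurred 3 times before HK2, 5 times before LDHA, 3 times before PGK1 and 1 time before ENO2, counted over both strands, and no match was found before SLC2A1. Because CACGTG reads the same on both strands, each copy of it counts as 2 matches, and LDHA held 2 copies. A match was present for 7 of the 10 members, against 43.2% of 35116 windows of the same length, some of which share a gene. CACGTG was present for 2 members, LDHA and GAPDH, against 6.34% of windows. SLC2A1, HK1 and PFKP had no match, which says only that these letters are not in these windows. Binding to these sequences was not measured.

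The median intensity of an array was 87.7 to 97.0, and 16259 to 19814 of 47228 probes were detected (detection p under 0.05), and precision was limited by how few arrays there were. Of 7 epithelial duct marker names, 7 were detected on all 6 Capan-1 arrays and 2 on all 6 MIA PaCa-2 arrays. EPCAM and TACSTD1 among them are names of the same gene, which was thus counted more than once. In MIA PaCa-2, CDH1 lay between 4.19 and 4.41 on the normalized log2 scale. Of 3 mesenchymal markers, 2 (VIM and CDH2) were detected on all 6 Capan-1 arrays and 1 (VIM) on all 6 MIA PaCa-2 arrays. VIM probe 830593 ran from 13.08 to 13.35 in MIA PaCa-2 and from 5.60 to 6.15 in Capan-1. CDH2 ran from 5.91 to 7.26 in Capan-1 and from 4.18 to 4.70 in MIA PaCa-2. None of the fibroblast, leukocyte or endothelial markers was detected on all arrays of a line. PTK2, which encodes FAK, fell with each hairpin at probe 450253, with log2 changes for sh1209 and sh1319 of -2.24 and -2.48 in MIA PaCa-2, then -0.61 and -1.78 for Capan-1. The knockdown in Capan-1 was thus weaker with sh1209 than with sh1319, with a difference of 1.16 (SE 0.11, adjusted p = 6.2e-05), and its part in the results below was not tested. The dim PTK2 probe 2680750 passed the test in none of these 4 comparisons. In bulk samples, fewer cells with a transcript and less of it per cell cannot be told apart.

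Of the 22 member rows, 18 were tested and 17 of these were detected on all 12 arrays, so the detection filter did not select them for a difference. All 10 genes had at least 1 tested probe, and 13 of the 18 probes lay in the top 10% of tested probes by mean level. The exception, ALDOA probe 2850255, was detected on 8 of 12 arrays and ran from 4.32 to 5.35, at the edge of background. A single ALDOA row (2470341) and 3 HK1 rows (2350678, 3850577 and 4280414) were detected on at most 1 array, were not tested and ran from 4.17 to 5.02. All levels below are normalized log2 intensities, which compare arrays within a probe and not probes with each other. ALDOA, GAPDH, PGK1, ENO1 and LDHA have near-identical copies in the genome, and probe sequences were not used here, so signal from a copy cannot be separated.

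**Figure D1:**
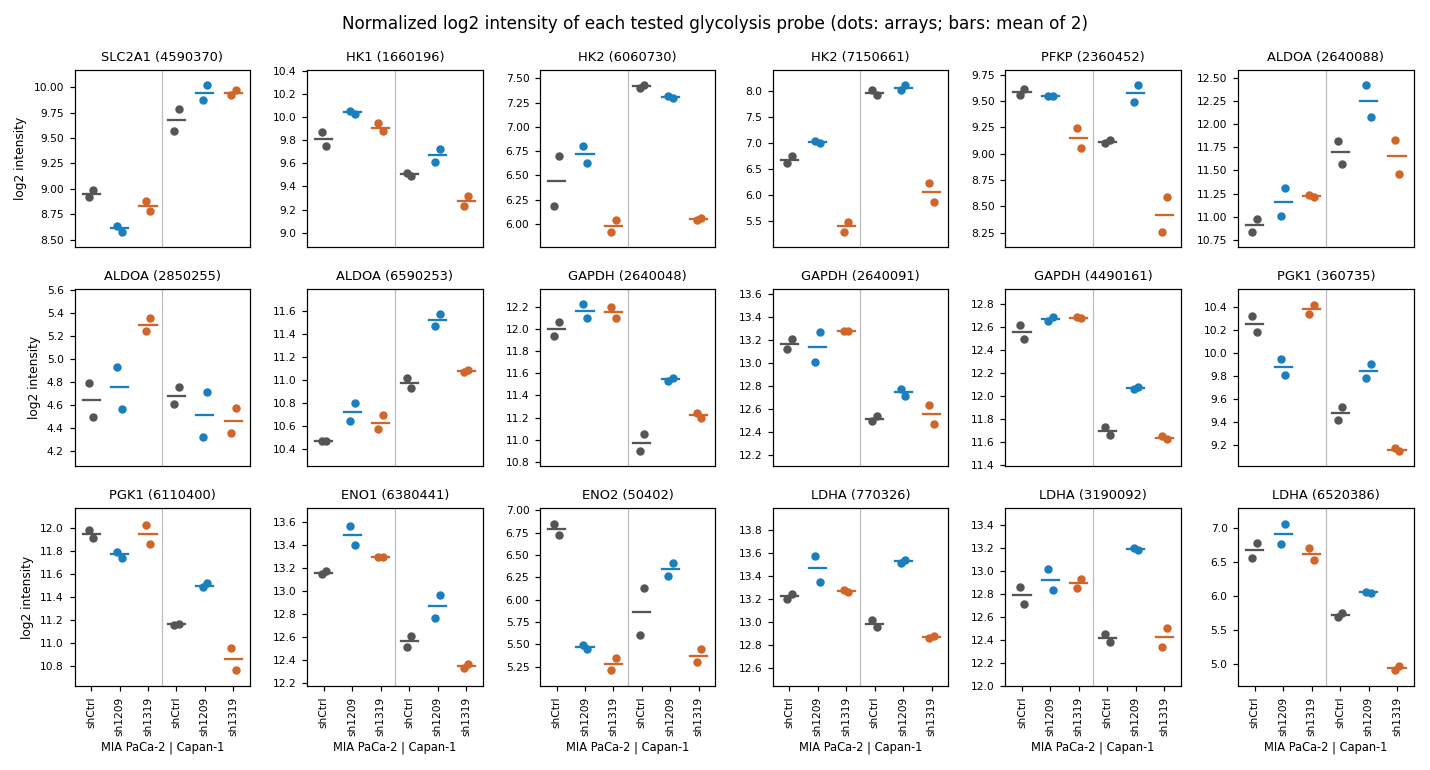
Normalized log2 intensity (vertical axis, its own range in each panel, each spanning at least 1.4 units) of the 18 tested member probes in the 6 groups (horizontal axis, MIA PaCa-2 left of the grey line and Capan-1 right). Dots are the 2 arrays of a group and bars their mean; HK2 probe 7150661 reads 5.30 to 5.49 with sh1319 in MIA PaCa-2 and 5.87 to 6.24 in Capan-1, below all other arrays of the same line.

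Among the calls in Capan-1, sh1209 went up and sh1319 down. In MIA PaCa-2 the shares called lay near those of all probes, and 12 of the 18 changes were positive with each hairpin. There, sh1209 raised 0 and lowered 2 of the 18 member probes (limma, adjusted p under 0.05), against 9.05% higher and 8.99% lower among the 24207 probes tested. With that hairpin, 6 member probes had an unadjusted p under 0.05 (limma), against 7153 of the 24207. In that line sh1319 raised 1 and lowered 3, against 12.2% and 12.1%. In Capan-1, sh1209 raised 7 and lowered 0, against 8.14% and 8.69%, and 16 of the 18 changes were positive. In Capan-1 sh1319 lowered 4 and raised 0, against 6.77% lower and 6.95% higher, and 13 of the 18 changes were negative. The median change of the members was 0.15 and 0.10 in MIA PaCa-2, then 0.35 and -0.22 for Capan-1, in the order sh1209 and sh1319, beside medians of all tested probes within 0.01 of 0. The hairpins of a line share its shCtrl arrays.

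**Figure D2:**
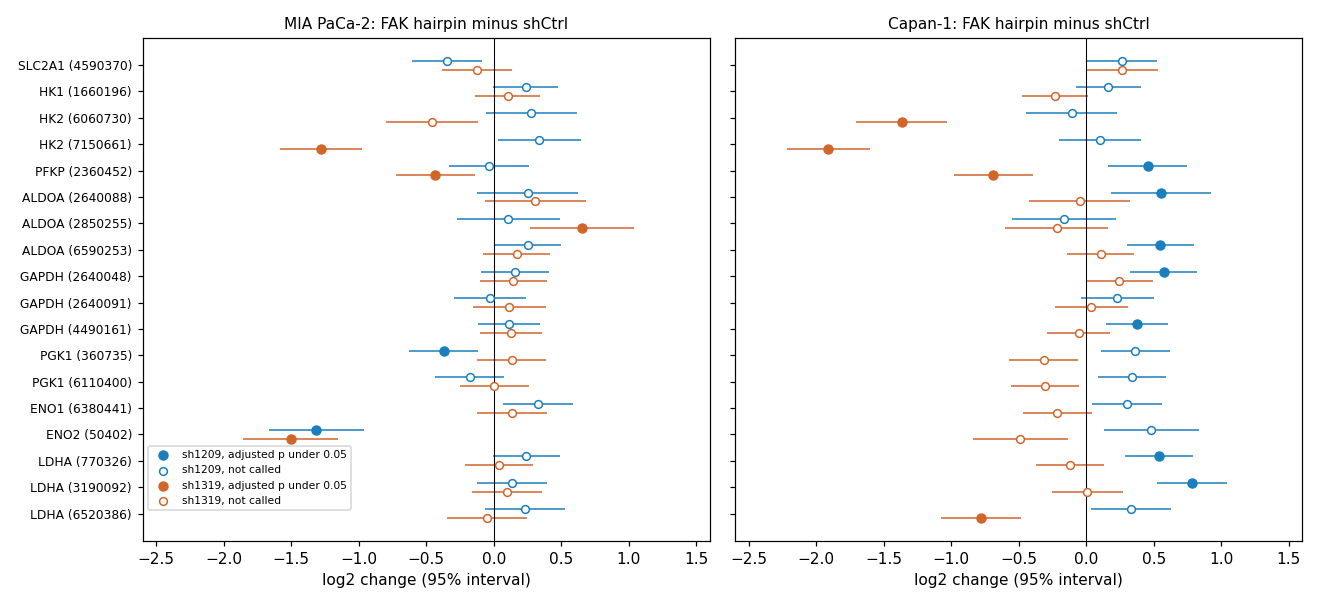
Log2 change against shCtrl (horizontal axis, with 95% intervals) of each tested member probe (vertical axis) with sh1209 (blue) and sh1319 (orange), MIA PaCa-2 on the left and Capan-1 on the right. Filled points passed an adjusted p of 0.05; in Capan-1 the 7 filled sh1209 points lie right of 0 and the 4 filled sh1319 points left of it.

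Averaged over the 4 pairs of hairpin and shCtrl, the combined knockdown raised 3 member probes (ALDOA 6590253, GAPDH 2640048 and LDHA 3190092) and lowered 3 (both HK2 probes and ENO2). The background was 12.5% higher and 12.7% lower. The rises were small, 0.27, 0.28 and 0.25, and each ended when arrays were scaled by their medians instead of by quantiles (adjusted p = 0.11, 0.084 and 0.15). ALDOA 6590253 also missed the threshold without Capan-1 shCtrl replicate 2 (adjusted p = 0.064). GAPDH 2640048 missed it without shCtrl replicate 1 of MIA PaCa-2 (0.051) or of Capan-1 (0.061), and LDHA 3190092 without MIA PaCa-2 shCtrl replicate 2 (0.096) or either Capan-1 shCtrl array (0.054 and 0.087). ENO2 fell by 0.71 (SE 0.10) and the HK2 probes by 0.69 (SE 0.09) and 0.41 (SE 0.09), and these calls held with each array left out. HK2 6060730 missed the threshold with median scaling (-0.23, adjusted p = 0.27). With each pair of replicates averaged, so that hairpins supply the error, none of the combined calls held (limma, adjusted p of 0.64 to 0.84). The HK2 probes changed by -0.11 to 0.34 with sh1209, none of it called, and ENO2 passed in neither Capan-1 pair.

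The scaling moved these splits. Over all tested probes, the share of calls that were higher went from 48.4% to 81.7% for sh1209 and from 50.6% to 85.3% for sh1319 in Capan-1 with median scaling. It went from 50.3% to 66.6% for sh1319 in MIA PaCa-2, from 49.6% to 78.0% in the combined knockdown, from 50.4% to 31.7% in the interaction of line and knockdown and from 50.6% to 34.7% between the hairpins in MIA PaCa-2. Under it the median of all tested probes was 0.107 for sh1319 in Capan-1, where the members' median was -0.07 with 7 positive and 11 negative. For sh1209 in Capan-1 the members' median was 0.48 with 17 of 18 positive. Of the members, 3 were called higher and 0 lower, against 2009 and 450 of the 24207 tested probes. In the combined knockdown 0 members were then called higher and 2 lower (limma), against 3303 and 934 of the 24207 tested probes. There 6 member probes had an unadjusted p under 0.05, against 6822 of all tested probes. Of the 17 calls against shCtrl in the 4 pairs, 8 held with median scaling: ENO2 with both hairpins and HK2 7150661 with sh1319 in MIA PaCa-2, GAPDH 2640048 and LDHA 3190092 with sh1209 in Capan-1, and both HK2 probes and LDHA 6520386 with sh1319 there. The other 9 ended, with adjusted p of 0.051 to 0.45.

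The clearest pattern among the members was the difference between the hairpins in Capan-1. Its size is not taken from shCtrl arrays, but its SE and p-value rest on a spread pooled over all 6 groups, shCtrl included. Levels were higher with sh1209 than with sh1319 for 17 of 18 probes, with a median difference of 0.62, and 14 probes of 9 genes passed the test. SLC2A1 was the gene with no called probe. None was lower, and the background was 5.81% higher and 5.47% lower. The differences called ran from 0.39 for HK1 to 2.01 for HK2. With median scaling all 18 differences were positive, with a median of 0.53, and 5 were called: ENO2, PFKP, both HK2 probes and LDHA 6520386. Of all 24207 tested probes, 690 were called higher and 527 lower under that scaling. The bright LDHA probes and both PGK1 probes then missed the threshold (adjusted p of 0.073 to 0.095). With 1 array left out, 9 or 10 probes were called. HK2, ENO2, PFKP and the 3 LDHA and 2 PGK1 probes kept their calls without each array, while ALDOA, GAPDH 4490161, HK1 and ENO1 lost theirs without at least 1 array (adjusted p of 0.050 to 0.30).

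In MIA PaCa-2 the hairpins differed at 4 member probes, with a median over the 18 of 0.06, or -0.12 with median scaling: 2 were higher with sh1209, both of HK2, and 2 were lower, PGK1 360735 and the dim ALDOA 2850255. The background was 11.5% higher and 11.2% lower. The ALDOA call ended without sh1209 replicate 2 (adjusted p = 0.27) or without replicate 1 or 2 of sh1319 (0.095 and 0.17). The PGK1 call ended without replicate 2 of sh1209 or of sh1319 (0.063 and 0.056).

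**Figure D3:**
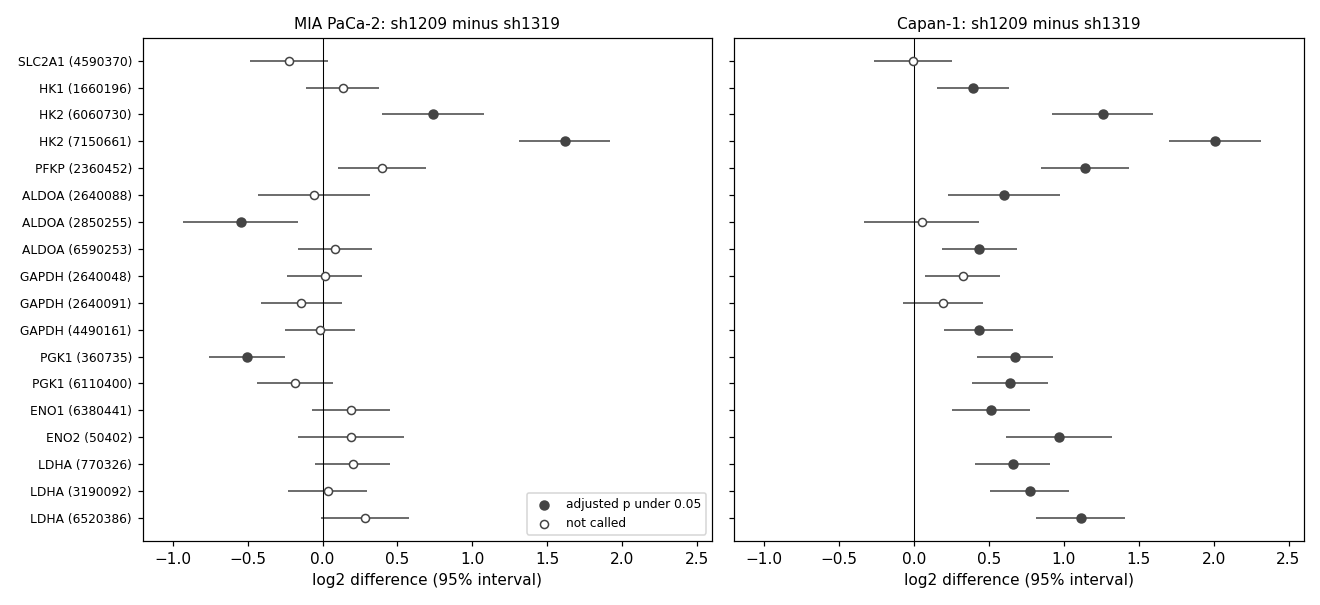
Difference in log2 level between sh1209 and sh1319 (horizontal axis, 95% intervals, positive is higher with sh1209) of each tested member probe (vertical axis) in MIA PaCa-2 (left) and Capan-1 (right). Filled points passed an adjusted p of 0.05: 4 for MIA PaCa-2 and 14 for Capan-1, all 14 to the right of 0.

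At the entry step, SLC2A1 (GLUT1), the basal glucose carrier of most cells, passed the test with neither hairpin, and its changes had opposite signs in the lines. Its levels in MIA PaCa-2 were 8.92 and 8.99 with shCtrl, 8.63 and 8.58 with sh1209 and 8.88 and 8.78 with sh1319. In Capan-1 they were 9.57 and 9.78 with shCtrl, 9.87 and 10.02 with sh1209 and 9.92 and 9.97 with sh1319. Both hairpins lay below shCtrl in MIA PaCa-2 and above it in Capan-1, without overlap. The changes were -0.35 (95% interval -0.61 to -0.09, adjusted p = 0.068) and -0.12 (-0.38 to 0.14) in MIA PaCa-2. They were 0.26 (0.00 to 0.52) and 0.27 (0.01 to 0.53) for Capan-1. The knockdown change differed between the lines by -0.50 (SE 0.15, adjusted p = 0.04). This call held in 2 of 12 fits with an array left out, those without Capan-1 sh1209 replicate 1 or shCtrl replicate 2, and adjusted p was 0.052 to 0.17 in the other 10. It also ended with median scaling (adjusted p = 0.21).

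Of the hexokinases, which phosphorylate glucose, HK2 is the inducible form of many tumours and HK1 the form found in most tissues. HK2 fell with sh1319 in both lines, by the largest change among the members in Capan-1 and, at probe 7150661, by the next after ENO2 in MIA PaCa-2. Its probe 7150661 read 8.01 and 7.91 with shCtrl, 8.02 and 8.11 with sh1209 and 6.24 and 5.87 with sh1319 in Capan-1. In MIA PaCa-2 it read 6.61 and 6.75, 7.03 and 6.99, and 5.30 and 5.49 in the same order. With sh1319 both arrays lay below all others of the line, while sh1209 arrays lay just above shCtrl in Capan-1 and further above it in MIA PaCa-2. The fall with sh1319 was 1.91 on the log2 scale in Capan-1 (SE 0.14, 3.75-fold, adjusted p = 1.4e-05) and 1.28 in MIA PaCa-2 (SE 0.14, 2.43-fold, adjusted p = 4.4e-05). With sh1209 the changes were 0.10 (95% interval -0.20 to 0.41) in Capan-1 and 0.34 (0.03 to 0.64, adjusted p = 0.13) for MIA PaCa-2.

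The second HK2 probe, 6060730, was also lowest with sh1319 in Capan-1. It read 7.40 and 7.43, 7.32 and 7.30, and 6.04 and 6.06 for shCtrl, sh1209 and sh1319. Here sh1209 arrays lay just below shCtrl (change -0.11, not called), not above it as at 7150661. There it fell by 1.37 with sh1319 (SE 0.15, adjusted p = 0.00021). In MIA PaCa-2 its shCtrl arrays, 6.18 and 6.70, lay far apart, and the change with sh1319 to 5.92 and 6.04 was -0.46 (adjusted p = 0.050), short of the threshold. The difference between hairpins passed at both probes in both lines, at 1.62 and 0.74 in MIA PaCa-2, then 2.01 and 1.26 for Capan-1. Each call on HK2 against shCtrl or between hairpins held without each array. The letters marked before HK2 above thus belong to a gene that fell with 1 hairpin in both lines.

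HK1 probe 1660196 moved little. It read 9.87 and 9.75, 10.06 and 10.03, and 9.95 and 9.88 with shCtrl, sh1209 and sh1319 of MIA PaCa-2. In Capan-1 it read 9.52 and 9.49, 9.61 and 9.73, and 9.23 and 9.32 in the same order. No change against shCtrl passed, with values of 0.24 and 0.10 in MIA PaCa-2, then 0.16 and -0.23 for Capan-1. In Capan-1 the hairpins differed by 0.39 (SE 0.11, adjusted p = 0.04), a call lost without any 1 of the 4 arrays (adjusted p of 0.094 to 0.20).

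PFKP, the platelet form of phosphofructokinase, the committing step, moved as HK2 did with sh1319 but by less. It read 9.56 and 9.61 with shCtrl, 9.55 on both arrays with sh1209 and 9.24 and 9.05 with sh1319 in MIA PaCa-2. In Capan-1 it read 9.10 and 9.13, 9.49 and 9.65, and 8.26 and 8.59. Arrays with sh1319 were lowest in both lines, and sh1209 arrays were highest in Capan-1, with no overlap. PFKP fell by 0.69 with sh1319 in Capan-1 (SE 0.13, adjusted p = 0.0056; 0.055 without sh1319 replicate 1). It fell by 0.44 in MIA PaCa-2 (adjusted p = 0.034), a call lost without either shCtrl array or without sh1319 replicate 2 (0.083, 0.12 and 0.19). It rose by 0.45 with sh1209 in Capan-1 (adjusted p = 0.038), a call lost without any 1 of the 4 arrays (0.072 to 0.21). The difference of 1.14 between the hairpins in Capan-1 (SE 0.13, 2.21-fold, adjusted p = 0.00023) held without each array.

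ALDOA, the muscle-type aldolase that cleaves fructose bisphosphate, rose with sh1209 in Capan-1 at its bright probes. Probe 6590253 read 11.02 and 10.93 with shCtrl, 11.47 and 11.57 with sh1209 and 11.07 and 11.09 with sh1319, a rise of 0.55 with sh1209 (SE 0.11, adjusted p = 0.0067). Probe 2640088 rose by 0.55 as well (SE 0.17, adjusted p = 0.046), from 11.82 and 11.57 to 12.42 and 12.07. With sh1209 both arrays lay above both shCtrl arrays at each probe. The first call was lost without replicate 2 of shCtrl or of sh1209 (0.055 and 0.056), and the second without any 1 array (0.050 to 0.30). In MIA PaCa-2 the same probes changed by 0.25 and 0.25 with sh1209 and by 0.17 and 0.31 with sh1319, none of them called. The dim probe 2850255 rose by 0.65 with sh1319 in MIA PaCa-2 (adjusted p = 0.018), to 5.24 and 5.35 from 4.79 and 4.49, and this call was lost without shCtrl replicate 2 (0.12) or either sh1319 array (0.050 and 0.091).

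GAPDH, which oxidises glyceraldehyde phosphate and often serves as a reference gene, was not constant in Capan-1. Probe 2640048 read 10.90 and 11.05 with shCtrl, 11.53 and 11.56 with sh1209 and 11.24 and 11.20 with sh1319. Probe 4490161 read 11.73 and 11.66, 12.06 and 12.08, and 11.65 and 11.63. The sh1209 arrays were highest at both probes without overlap. The rises were 0.57 (SE 0.11, 1.49-fold, adjusted p = 0.0053), which held without each array, and 0.38 (SE 0.11, adjusted p = 0.032), which was lost without any 1 of them (0.089 to 0.15). The brightest probe, 2640091, changed by 0.23 (95% interval -0.04 to 0.50). In MIA PaCa-2 the 3 probes changed by -0.03 to 0.16, and none passed.

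PGK1, which makes the first ATP of the pathway, went opposite ways in the lines with sh1209. Probe 360735 in MIA PaCa-2 read 10.32 and 10.18 with shCtrl, 9.95 and 9.81 with sh1209 and 10.34 and 10.42 with sh1319. In Capan-1 it read 9.42 and 9.53, 9.78 and 9.90, and 9.17 and 9.15. With sh1209 it was thus lowest in MIA PaCa-2 and highest in Capan-1, without overlap. It fell by 0.37 in MIA PaCa-2 (SE 0.12, adjusted p = 0.047), a call lost without any 1 of the 4 arrays (0.068 to 0.22), and changed by 0.36 in Capan-1 (adjusted p = 0.054). The difference of the sh1209 change between lines was -0.73 (SE 0.16, adjusted p = 0.012) and held without each array. Probe 6110400 changed by -0.18 and 0.34 with sh1209, neither called. Between the hairpins in Capan-1 the probes differed by 0.68 and 0.64 (SE 0.12 each, adjusted p = 0.0032 and 0.0042; 0.073 and 0.095 with median scaling).

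The enolases among the members, which form phosphoenolpyruvate, diverged. ENO1, the form found in most tissues, passed against shCtrl in no pair, with changes of 0.32, 0.13, 0.30 and -0.21, and its hairpins differed by 0.51 in Capan-1 (adjusted p = 0.016). Its levels there were 12.52 and 12.61, 12.77 and 12.97, and 12.33 and 12.37 for shCtrl, sh1209 and sh1319. That difference was lost without sh1319 replicate 1 or 2 or sh1209 replicate 2 (0.091, 0.065 and 0.12).

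ENO2, the neuronal enolase, was the member that fell with both hairpins in MIA PaCa-2. It read 6.85 and 6.72 with shCtrl, 5.49 and 5.45 with sh1209 and 5.21 and 5.35 with sh1319. In Capan-1 it read 5.60 and 6.13, 6.27 and 6.41, and 5.30 and 5.45. The hairpin arrays of MIA PaCa-2 lay more than 1 log2 unit below shCtrl, while in Capan-1 shCtrl lay between the hairpins. ENO2 fell by 1.31 (SE 0.16, 2.49-fold, adjusted p = 0.00018) and 1.51 (SE 0.16, 2.84-fold, adjusted p = 3.9e-05) in MIA PaCa-2. In Capan-1 it changed by 0.48 (95% interval 0.13 to 0.84, adjusted p = 0.064) and -0.49 (-0.84 to -0.13, adjusted p = 0.070). The knockdown change differed between lines by -1.41 (SE 0.20, adjusted p = 0.00067), and the hairpins differed in Capan-1 by 0.97 (SE 0.16, adjusted p = 0.0026). All 4 calls held without each array.

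LDHA, which turns pyruvate into lactate, rose with sh1209 in Capan-1 at its bright probes. Probe 3190092 read 12.45 and 12.38 with shCtrl, 13.20 and 13.18 with sh1209 and 12.34 and 12.50 with sh1319. Probe 770326 read 13.02 and 12.96, 13.52 and 13.54, and 12.86 and 12.88. The sh1209 arrays lay above all others of the line at both probes, and shCtrl and sh1319 overlapped at the first. The rises were 0.78 (SE 0.12, 1.72-fold, adjusted p = 0.001), which held without each array, and 0.54 (SE 0.11, 1.45-fold, adjusted p = 0.0074), lost without shCtrl replicate 2 (0.055). In MIA PaCa-2 both probes changed by 0.04 to 0.24, and none passed. The dim probe 6520386 behaved otherwise: it fell with sh1319 in Capan-1 from 5.68 and 5.74 to 4.90 and 4.97, by 0.78 (SE 0.14, adjusted p = 0.0029), where the bright probes changed by 0.01 and -0.12. Which LDHA transcript each probe reads was not determined.

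With shCtrl, the lines differed at 16 of 18 member probes and in all 10 genes. MIA PaCa-2 was higher at 11 probes and lower at 5, against 22.5% higher and 19.6% lower among all tested probes. GAPDH was higher in MIA PaCa-2 at its 3 probes by 0.65 to 1.03, PGK1 at both by 0.78, ENO2 by 0.92, LDHA probe 6520386 by 0.96, ENO1 by 0.60, PFKP by 0.47, LDHA probe 3190092 by 0.38 and HK1 by 0.31. Capan-1 was higher for HK2 (differences of -1.28 and -0.98), both bright ALDOA probes (-0.78 and -0.51) and SLC2A1 (-0.72, SE 0.12, adjusted p = 0.00035). At their called probes, SLC2A1, HK2 and ALDOA thus read higher in Capan-1, and the other 7 genes higher in MIA PaCa-2. This split did not follow the order of the steps, as HK1 and PFKP, which act before ALDOA, were among those 7. LDHA probe 770326 (0.24, limma, adjusted p = 0.12) and the dim ALDOA probe 2850255 (-0.04) were not called. With median scaling ALDOA 6590253, HK1 and PFKP missed the threshold (adjusted p = 0.19, 0.20 and 0.074). The smallest differences depended on single arrays: HK1 was lost without any 1 of the 4 (0.057 to 0.20). LDHA 3190092 was lost without MIA PaCa-2 shCtrl replicate 1 or either Capan-1 array (0.14, 0.059 and 0.11), and PFKP without MIA PaCa-2 replicate 2 or Capan-1 replicate 1 (0.060 and 0.062).

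**Figure D4:**
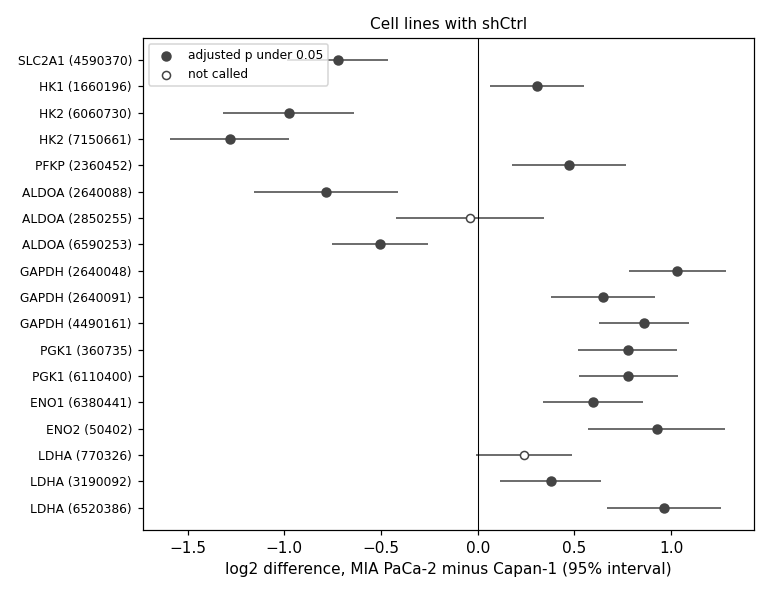
Difference in log2 level between MIA PaCa-2 and Capan-1 with shCtrl (horizontal axis, 95% intervals, positive is higher in MIA PaCa-2) of each tested member probe (vertical axis). Filled points passed an adjusted p of 0.05, 11 of them to the right of 0 and 5 to the left, the latter being SLC2A1, HK2 and ALDOA.

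The knockdown change as a mean of both hairpins differed between the lines at 3 member probes, ENO2, SLC2A1 and HK2 6060730, against 14.4% of all tested probes. At the other HK2 probe, 7150661, the difference was 0.43 and was not called (limma, adjusted p = 0.12). For HK2 6060730 the difference was 0.65 (SE 0.19, adjusted p = 0.041), the fall being larger in Capan-1. This call ended with median scaling (adjusted p = 0.33), without the filter on dim probes (0.058) and with a block for replicate number (0.059). This was lost in 10 of 12 fits with an array left out (0.054 to 0.16), and it held without replicate 2 of MIA PaCa-2 shCtrl or sh1209. In Capan-1 the calls went up with sh1209 and down with sh1319, and only PFKP was called with both. The lines were therefore also compared for each hairpin, a test added after the data were examined. The sh1209 change differed at 4 probes, against 14.8%, all of them more negative in MIA PaCa-2: ENO2, PGK1 360735, LDHA 3190092 and SLC2A1. The share of calls higher over all probes moved from 49.9% to 26.1% with median scaling in that test. The sh1319 change differed at 4 probes, against 14.0%: the change was more negative in MIA PaCa-2 for ENO2 and more positive for HK2 6060730, LDHA 6520386 and ALDOA 2850255.

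The other enzymes of the pathway were counted from a list of 18 genes, of which 11 had 18 tested probes. In Capan-1 sh1209 raised 8 of these and lowered 0, against 8.14% and 8.69% of all probes, and sh1319 raised 1 and lowered 2, against 6.95% and 6.77%. The hairpins differed there at 9, all higher with sh1209, with a median of 0.45, against 5.81% higher and 5.47% lower. In MIA PaCa-2 sh1209 raised 1 and lowered 2, and sh1319 raised 1 and lowered 3, near the shares of all probes (9.05% and 8.99%, then 12.2% and 12.1%). ENO3, another enolase gene, fell with both hairpins in MIA PaCa-2 at probe 1240300, with changes of -1.04 and -0.93 (limma, adjusted p = 0.019 and 0.025). ALDOC, the brain aldolase, fell by 0.84 with sh1209 in MIA PaCa-2 and rose by 1.12 with it in Capan-1. PGAM1, a phosphoglycerate mutase, fell with sh1319 in both lines at probe 2680706, by 0.76 and 0.66, and read higher with sh1209 than with sh1319 by 0.68 and 0.95. GPI, which interconverts hexose phosphates, rose with both hairpins in MIA PaCa-2 (0.37 and 0.36), and by 0.47 with sh1209 in Capan-1. BPGM, which makes bisphosphoglycerate, rose by 1.07 with sh1209 in Capan-1 at probe 3060682. The triose isomerase TPI1 and the pyruvate kinase PKM2 were picked after their values were seen. TPI1 rose with sh1209 in Capan-1 at both probes (0.46 and 0.72), and PKM2 passed at 1 of 3 probes in 1 of the 4 pairs, falling by 0.47 with sh1319 in Capan-1.

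Of the other carriers for glucose and lactate, a list of 14 genes with 11 tested probes of 10 genes, sh1209 raised 2 and lowered 4 in MIA PaCa-2, against 9.05% and 8.99% of all probes, and sh1319 raised 1 and lowered 2, against 12.2% and 12.1%. In Capan-1 sh1209 raised 4 and lowered 2, against 8.14% and 8.69%, and sh1319 raised 3 and lowered 0, against 6.95% and 6.77%. SLC2A3 (GLUT3), a carrier of high affinity, read 9.21 and 9.07 with shCtrl, 5.42 and 5.23 with sh1209 and 8.28 on both arrays with sh1319 in MIA PaCa-2. It fell by 3.81 with sh1209 (SE 0.11, adjusted p = 4.3e-09) and by 0.86 with sh1319, and it was not detected on any Capan-1 array. SLC2A14, its close copy, was detected with shCtrl in MIA PaCa-2 alone (5.59 and 5.07), and signal from SLC2A3 cannot be separated there. SLC16A3 (MCT4), which exports lactate, fell by 0.54 with sh1209 and rose by 1.22 with sh1319 in MIA PaCa-2, and rose by 1.34 and 0.80 in Capan-1. SLC2A10, another carrier, rose with both hairpins in Capan-1 at probe 3800639, by 1.22 and 1.21. Of 15 tested probes of 12 genes that control glycolysis, sh1209 raised 2 and lowered 2 in MIA PaCa-2, and sh1319 raised 2 and lowered 3. In Capan-1 sh1209 raised 2 and lowered 0, and sh1319 raised 1 and lowered 1. The shares of all probes are those given for the carriers. PFKFB4 among them, which sets the activator of phosphofructokinase, fell by 0.89 with sh1209 and rose by 1.54 with sh1319 in MIA PaCa-2, and rose by 1.46 with sh1209 in Capan-1.

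**Figure D5:**
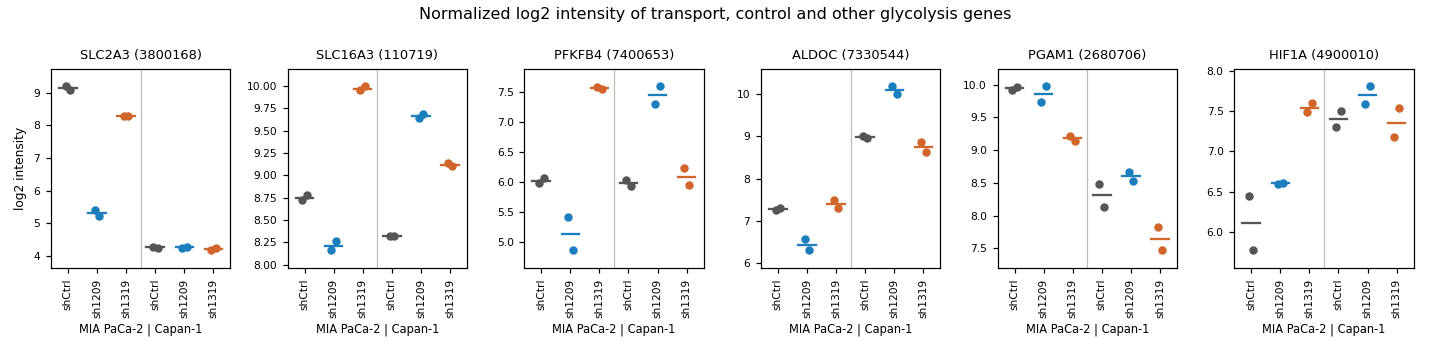
Normalized log2 intensity (vertical axis, its own range in each panel) of 6 genes outside the 10 members in the 6 groups (horizontal axis, MIA PaCa-2 left of the grey line and Capan-1 right), with dots for the 2 arrays of a group and bars for their mean. SLC2A3 drops from 9.07 to 9.21 with shCtrl to 5.23 to 5.42 with sh1209 in MIA PaCa-2 and stays near 4.2 in Capan-1.

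The genes whose pattern was most like that of 4 members were ranked by Pearson's r over the 12 arrays after each line's mean was subtracted, which removes the difference between lines but keeps shared arrays and groups. HK2 probe 7150661 was most like TXNDC12 (r = 0.984), VPS24 (0.983) and C1ORF163 (0.975). These changed by -0.64, -1.02 and -0.63 with sh1319 in MIA PaCa-2, then -1.17, -1.19 and -0.75 for Capan-1, and by at most 0.15 in size with sh1209. SLC2A1 was most like C1ORF24 (0.921), SEZ6L2 (0.917) and HRASLS3 (0.900), which were lower with both hairpins in MIA PaCa-2 and higher in Capan-1. PGK1 probe 6110400 was most like TMC5 (0.970), LOC644774 (0.952) and ICOSLG (0.943). Genes like LDHA probe 770326 included EGR3 (0.952) and HSD17B4 (0.942), both of which were higher with sh1209 than with sh1319 in Capan-1.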

How the data were processed

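Group and replicate of the 12 arrays came from the sample labels. Per probe and array, the authors deposited a linear intensity, not normalized and with no background subtracted, next to a p-value of detection, and GenomeStudio 2011.1 is named in the submitters' processing notes. The lowest intensity was 66.6, and 92 spike-in control rows were left out of 47320. Background was corrected with limma's nec (normexp from the detection p-values, offset 16, which understates the change of dim probes), followed by quantile normalization and log2. Probes with a detection p under 0.05 on at least 2 arrays were tested (24207). limma 3.58.1 in R 4.3.3 (lmFit, eBayes) gave 1 mean to each of the 6 groups, leaving 6 residual degrees of freedom. Benjamini-Hochberg adjustment ran over all tested probes, separately in each of 11 comparisons. On simulated data with 200 changes of 1.5 (log2), the share recovered was 94.5% for MIA PaCa-2 sh1209 (5.97% of calls false) and 99.5% for the combined knockdown (1.49% false). All other probes were simulated without a change, and no smaller change was planted. Recovery and false calls for smaller changes, as most called here were, or with more probes changed, were therefore not tested.

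Members, gene lists and cell markers were chosen with earlier results of these data known. The genes named are the members, PTK2, and, from each of 8 lists, up to 4 genes with the largest combined change among those called and up to 2 for each of the 4 hairpin comparisons. From each list some of these are named, and TPI1 and PKM2 were added after their values were seen. Likeness was ranked for the brightest probe of SLC2A1, HK2, PGK1 and LDHA, and 1 of the genes ranked for LDHA is not reported here. Alternatives were median scaling, leaving out the background correction, all probes unfiltered, a stricter filter (detection p under 0.01 on both arrays of at least 1 group), a block for replicate number, omission of each array, a fit of 1 cell line, averaged replicates and the methods' t-test. The lines were compared for each hairpin after the data were examined. Promoter sequences are from RefSeq (GRCh38.p14), where all 10 members matched by symbol. Protein and probe sequences were not used here.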

Additional observations from a re-analysis of the deposited data

Results flagged for a closer look

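Results are listed here where the change with FAK knockdown in MIA PaCa-2 differed from that in Capan-1 by a test of the difference itself (limma, adjusted p under 0.05), as MIA PaCa-2 minus Capan-1 on the log2 scale. For the mean of both hairpins this held for ENO2 (-1.41), SLC2A1 (-0.50) and HK2 probe 6060730 (0.65). For sh1209 alone, in a test added after the data were examined, it held for ENO2 (-1.80), PGK1 probe 360735 (-0.73), LDHA probe 3190092 (-0.65) and SLC2A1 (-0.61). For sh1319 alone it held for ENO2 (-1.02), HK2 probe 6060730 (0.91), ALDOA probe 2850255 (0.87) and LDHA probe 6520386 (0.73). The other tested probes of HK2, PGK1, LDHA and ALDOA, the bright ALDOA probes included, were not called in the same test. ENO2 was the member called in all 3 of these tests, and it held without each array except that for sh1319 it missed the threshold without Capan-1 sh1319 replicate 2 (adjusted p = 0.051). PGK1 held throughout. For sh1209, LDHA 3190092 was lost without replicate 1 of MIA PaCa-2 shCtrl, replicate 2 of MIA PaCa-2 sh1209 or any 1 of the 4 Capan-1 arrays used (0.052 to 0.081). SLC2A1 was lost there without any 1 of the 4 MIA PaCa-2 arrays, Capan-1 shCtrl replicate 1 or Capan-1 sh1209 replicate 2 (0.055 to 0.11). For sh1319, leaving out any 1 of the 4 Capan-1 arrays ended the calls on HK2 6060730 (0.051 to 0.055), LDHA 6520386 (0.060 to 0.081) and ALDOA 2850255 (0.055 to 0.13). So did MIA PaCa-2 sh1319 replicate 2 for HK2 (0.057), replicate 1 of MIA PaCa-2 shCtrl or sh1319 for LDHA (0.085 and 0.095), and shCtrl replicate 2 or either sh1319 array of MIA PaCa-2 for ALDOA (0.11, 0.068 and 0.10). The PTK2 probe 450253 differed between the lines in the same tests, by -1.17, -1.63 and -0.71, and its part in these differences was not tested. Groups of 2 arrays were too small to test for a sample far from the others.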

How the results depend on the processing

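Counts of member probes called are given here for each alternative that moved them by more than 1.5 times. In the text's order of comparisons, sh1209 and sh1319 against shCtrl gave 2 and 4 calls for MIA PaCa-2, then 7 and 4 for Capan-1, the combined knockdown 6, the interaction 3, the hairpins 4 for MIA PaCa-2 and 14 for Capan-1, and the lines 16. Without background correction, sh1209 gave 7 for MIA PaCa-2, then 12 for Capan-1, sh1319 gave 9 in Capan-1, and the combined knockdown gave 11. With median scaling, sh1209 gave 1 and sh1319 2 in MIA PaCa-2, sh1209 gave 3 in Capan-1, the combined knockdown 2, the interaction 1 and the hairpins in Capan-1 5. The stricter filter gave 4 for sh1209 in MIA PaCa-2, and a fit of 1 cell line gave 1 there and 4 for sh1209 in Capan-1. With each pair of replicates averaged, so that hairpins supply the error, the combined knockdown and the interaction each gave 0, and 0 at an unadjusted p under 0.05. The methods' t-test after Benjamini-Hochberg adjustment gave 6 between the lines and 0 in each comparison of hairpins within a line, where 3 to 14 probes had an unadjusted p under 0.05. For the tests of each hairpin between lines, 4 and 4 calls became 7 and 7 without background correction and 2 and 1 with median scaling. With 1 array left out, which leaves a group with a lone array assumed to vary like the others, the counts ran from 1 to 2 and 2 to 4 in MIA PaCa-2, 3 to 4 and 3 to 5 in Capan-1, 4 to 6 combined, 1 to 2 in the interaction, 2 to 4 and 9 to 10 between hairpins, 13 to 14 between lines, and 2 to 4 and 0 to 3 between lines for sh1209 and sh1319. The 0 arose in limma without Capan-1 sh1319 replicate 2, where 7 probes had an unadjusted p under 0.05.

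No called change turned its sign under any alternative run. The replicate numbers are in the labels, but nothing says that they pair the arrays, and deviations of same-numbered arrays correlated at -0.0525 to 0.16. With the replicate number as a block, the calls were 1 and 4 in MIA PaCa-2, then 7 and 4 for Capan-1, 7 combined, 2 in the interaction, 4 and 13 between hairpins and 15 between lines. Each group had 2 arrays, and the signal of ALDOA probe 2850255, near the lowest detected log2 level of 4.55 to 4.74, limits what its changes can show.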

Other observations

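Lists beside the pathway were read in the same fit. Of 26 probes of 19 hypoxia-responsive genes that are not glycolytic enzymes, sh1209 raised 3 and lowered 8 in MIA PaCa-2, against 9.05% and 8.99% of all probes, and raised 11 and lowered 0 in Capan-1, against 8.14% and 8.69%. With sh1319, 9 rose and 2 fell in MIA PaCa-2, against 12.2% and 12.1%, and 6 rose and 3 fell in Capan-1, against 6.95% and 6.77%. The hairpins differed at 15 of these probes in MIA PaCa-2, with 1 higher and 14 lower with sh1209, against 11.5% and 11.2%, and at 10 in Capan-1, all higher with sh1209, against 5.81%. ADM (adrenomedullin), a peptide hormone, rose in all 4 pairs, by 2.28 and 2.77 in MIA PaCa-2, then by 0.90 and 0.73 for Capan-1. BNIP3L, a mitophagy receptor, fell by 1.84 with sh1209 in MIA PaCa-2 at probe 620047 and rose by 0.89 with it in Capan-1. ERO1L, an oxidase of the endoplasmic reticulum, fell by 1.08 with sh1209 and rose by 1.16 with sh1319 in MIA PaCa-2. Of 26 probes of 16 genes in a list of regulators, sh1209 raised 2 and lowered 0 in MIA PaCa-2, against 9.05% and 8.99%. There sh1319 raised 8 and lowered 5, against 12.2% and 12.1%. In Capan-1 sh1209 raised 1 and lowered 7, against 8.14% and 8.69%. With sh1319, 1 rose and 4 fell there, against 6.95% and 6.77%. HIF1A, the oxygen-regulated subunit of HIF-1, rose with sh1319 in MIA PaCa-2 at its 3 probes, by 1.11, 1.43 and 1.25. It passed in no other pair. MYC fell by 1.01 with sh1209 in Capan-1 at both probes and rose with sh1319 in MIA PaCa-2, by 0.37 and 0.58, and passed in neither other pair. Other regulators changed as much: EPAS1 rose by 1.47 with sh1319 in MIA PaCa-2, where it was not detected with shCtrl. In Capan-1, MLX fell by 1.21 with sh1209 and by 0.81 with sh1319. VHL fell by 1.02 with sh1319 in Capan-1 at probe 2480170 and rose by 0.80 with sh1209 in MIA PaCa-2 at probe 6650543.

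Among genes often used as references, 13 genes with 25 tested probes, sh1209 raised 4 and lowered 1 in MIA PaCa-2, against 9.05% and 8.99%, and raised 1 and lowered 5 in Capan-1, against 8.14% and 8.69%. With sh1319, 6 rose and 3 fell in MIA PaCa-2, against 12.2% and 12.1%, and 0 rose and 2 fell in Capan-1, against 6.95% and 6.77%. Of the pentose phosphate genes, PGD fell by 0.37 with sh1209 in MIA PaCa-2 and rose by 0.49 and 0.46 in Capan-1. PCK2, a mitochondrial enzyme of gluconeogenesis, fell with both hairpins in MIA PaCa-2 at probe 1780446, with changes of -0.64 and -0.83, and rose by 0.43 and 0.66 in Capan-1. Its probes disagreed: 1510114 fell in MIA PaCa-2 as well (-1.02 and -0.46) but passed in neither Capan-1 pair, and 7320682 passed in none of the 4.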
